A study of Homo sapiens with 96 samples.

Results

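Changes of exon use in A549 cells treated with GSK591 and MS023 together for 4 days are described here against DMSO. The members are the exon events that rMATS counted for this comparison, namely alternative 5′ splice sites (A5SS), alternative 3′ splice sites (A3SS), pairs of exons that exclude each other (MXE), and skipped exons (SE), without any choice by value. They number 134064 of the 138571 events of the comparison. These are 96913 SE, 24408 MXE, 7674 A3SS, and 5069 A5SS, and the remaining 4507 are retained introns (RI), which serve only as a short reference. With the 3 other tables used here for comparison, the count of distinct events is 197871.

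A549 is an established human cell line that was derived from an adenocarcinoma of the lung. Poly(A) RNA was sequenced from 3 libraries per group. Control cells received 0.01% DMSO for 4 days, and co-treated cells received 1 µM GSK591, an inhibitor of PRMT5, with 1 µM MS023, an inhibitor of the Type I PRMTs, for 4 days. For comparison, the libraries of 1 µM GSK591 alone at 4 days, 1 µM MS023 alone at 4 days, and both inhibitors at 2 days were used. All groups are of a single cell line, and the tables hold no gene-level counts, so neither the identity of the line nor the action of the inhibitors could be checked against marker genes. Nothing in the labels says whether the libraries of a group came from separate cultures. The p-values thus rest on a spread between libraries that may be technical. For most event types this spread was pooled over all events, so it is not that of the single event. Library a, b, or c is a position in the table and not a replicate number. The reads counted on exon events ranged from 79142903 to 103315320 per library, where a read counts once for every event it touches.

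Protein arginine methyltransferases (PRMTs) add methyl groups to arginine. The Type I enzymes make asymmetric dimethylarginine, and PRMT5, the main Type II enzyme, makes symmetric dimethylarginine. Much of what they methylate binds RNA, including the Sm proteins at the core of the spliceosomal snRNPs, hnRNP proteins, and SR-rich factors. An internal exon is defined by a 3′ splice site, with a polypyrimidine tract and an AG, and by a 5′ splice site that pairs with the U1 snRNA through the last bases of the exon and the first bases of the intron. Whether it enters the mRNA depends on these sites and on SR and hnRNP proteins bound nearby. An exon whose length is a multiple of 3 can be left out without a shift of the reading frame.

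The inclusion level Ψ of an event is the share of its inclusion form, from 0 to 1. It was computed from the counts of reads for each form after division by the effective length of that form. For SE the inclusion form holds the exon, for MXE it holds the first of both exons in transcript order, and for A3SS and A5SS it holds the longer exon. ΔΨ is the mean Ψ of the 3 co-treated libraries minus the mean Ψ of the 3 DMSO libraries. An event was tested where every library had at least 10 reads on it, and it was called at an adjusted p under 0.05 in a quasi-binomial test whose dispersion was moderated with limma. Errors of mean Ψ are SD over 3 libraries and errors of ΔΨ are SE.

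The exons below are those of the 16 named SE that no annotated transcript places in a UTR, together with an exon of MDM4. They are shown because the largest changes of exon skipping, described further on, rest on them. The sequence is that of GRCh37, the same assembly as the hg19 coordinates of the tables, read 5′ to 3′ on the strand of the gene. Capitals mark the exon, and lower case marks 20 bases of the intron before it and 6 of the intron after it. The first 6 exons fell with co-treatment.

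SNHG1 (chr11:62622354-62622430, minus strand): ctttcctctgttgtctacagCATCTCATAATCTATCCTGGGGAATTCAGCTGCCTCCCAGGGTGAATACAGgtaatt

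SUN1 (chr7:889540-889676, plus strand): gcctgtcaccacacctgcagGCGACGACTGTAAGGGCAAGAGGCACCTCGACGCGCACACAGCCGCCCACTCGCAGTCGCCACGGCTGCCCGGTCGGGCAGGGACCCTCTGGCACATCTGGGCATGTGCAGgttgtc

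NTAN1 (chr16:15141848-15141976, minus strand): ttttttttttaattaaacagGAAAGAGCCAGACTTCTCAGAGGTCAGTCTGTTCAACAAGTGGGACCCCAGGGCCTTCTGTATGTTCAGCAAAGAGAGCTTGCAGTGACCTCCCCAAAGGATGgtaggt

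KIAA0430 (chr16:15719453-15719677, minus strand): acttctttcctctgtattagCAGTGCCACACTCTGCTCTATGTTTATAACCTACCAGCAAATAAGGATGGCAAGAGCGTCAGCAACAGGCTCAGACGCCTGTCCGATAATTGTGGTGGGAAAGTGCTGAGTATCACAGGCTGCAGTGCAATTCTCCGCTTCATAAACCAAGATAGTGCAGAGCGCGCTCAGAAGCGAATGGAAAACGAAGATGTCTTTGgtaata

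CASK (chrX:41416279-41416373, minus strand): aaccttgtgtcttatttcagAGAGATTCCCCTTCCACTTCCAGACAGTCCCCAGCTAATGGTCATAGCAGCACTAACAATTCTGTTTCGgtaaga

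MDM4 (chr1:204506538-204506631, plus strand): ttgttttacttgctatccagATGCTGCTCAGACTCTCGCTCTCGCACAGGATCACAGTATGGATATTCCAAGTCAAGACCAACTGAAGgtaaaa

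The next 4 exons rose with co-treatment.

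SEC31A (chr4:83752084-83752148, minus strand): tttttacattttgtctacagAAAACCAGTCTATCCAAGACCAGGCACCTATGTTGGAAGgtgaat

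RALGPS2 (chr1:178861345-178861448, plus strand): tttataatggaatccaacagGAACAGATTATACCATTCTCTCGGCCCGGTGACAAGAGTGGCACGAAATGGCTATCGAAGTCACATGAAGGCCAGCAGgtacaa

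PAPSS2 (chr10:89481493-89481533, plus strand): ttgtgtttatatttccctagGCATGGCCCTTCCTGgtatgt

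NEDD4L (chr18:56002690-56002775, plus strand): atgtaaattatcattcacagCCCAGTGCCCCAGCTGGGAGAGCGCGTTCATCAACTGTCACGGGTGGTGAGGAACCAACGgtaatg

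Skipped exons fell more often than they rose. Of 80463 SE tested, 9713 (12.1%) were called, 7080 lower (8.8%) and 2633 higher (3.27%). The called SE lie in 4649 of the 10633 genes with a tested SE. Lower events made up 72.9% of the called SE and 71.2% of the 4407 called SE with an absolute ΔΨ of at least 0.1. The median ΔΨ was -0.0833 among events called lower and 0.0951 among those called higher, so most called changes were small. A change of at least 0.5 was seen in 118 events called lower and 50 called higher. Over all SE tested the median ΔΨ was -0.00188 (two-sided exact permutation test over the 6 libraries, p = 0.1, the smallest that 3 libraries against 3 allow). The median over SE of each single co-treated library was 0, and the median of the means was -0.000592, -0.00078, and -0.000899 without co-treated library a, b, and c. In 8656 of the called SE the 3 co-treated libraries all lay on one side of the 3 DMSO libraries, and this held for 15284 (19.0%) of all SE tested.

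The other exon events were called in both directions in more even numbers. Of 22598 MXE tested, 2432 (10.8%) were called, 1336 toward the first exon (5.91%) and 1096 toward the second (4.85%). Of 6304 A3SS tested, 755 (12%) were called, 405 toward the longer exon (6.42%) and 350 toward the shorter (5.55%). A5SS had the largest share of called events among the exon types, with 958 of 4122 tested (23.2%), 576 toward the longer exon (14%) and 382 toward the shorter (9.27%). For reference, 1535 of 3949 RI were called (38.9%), and 84.9% of them were higher. The median ΔΨ over all tested events was 0.000265 for MXE, 8.57e-05 for A3SS, and 0.00122 for A5SS (two-sided exact permutation tests, p = 1, 0.4, and 0.1). The MXE value turned to -0.000327 without DMSO library b, which stands apart in MXE (chi-square per degree of freedom 3.24 and 3.6 against the other DMSO libraries, which differ from each other by 2.28).

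The counts depend on how the spread between libraries is estimated. When limma was run on log2 odds, 3955 SE were called, 3088 lower and 867 higher, and the counts were 1018 for MXE, 147 for A3SS, and 470 for A5SS. Lower SE made up 78.1% of the calls of limma, and 3307 of its SE were also called in the quasi-binomial test. On simulated counts limma recovered none of the smaller planted changes. Those counts held a smaller share of changed events than was called here against DMSO. They therefore cannot tell whether small changes are absent where limma called 0. Limma was not tried on the larger planted changes. For SE, A3SS, and A5SS the moderation gave every event of a type the same dispersion (1.95, 2.08, and 2.09), so very small adjusted p-values rest on a spread pooled over events. In the direct tests against the other groups, given below, the same held for every exon type, MXE included.

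**Figure D1:**
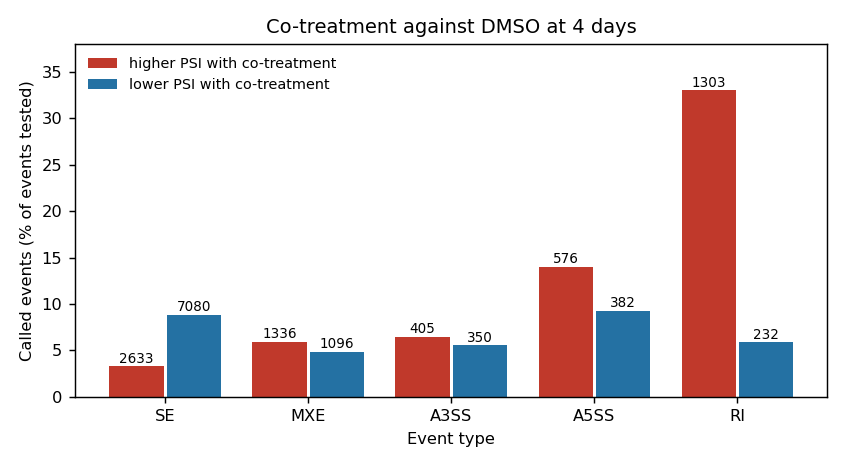
Share of tested events (y axis, percent) called at an adjusted p under 0.05 with co-treatment against DMSO at 4 days, for each event type (x axis), with the number of events above each bar. SE are called lower in 7080 and higher in 2633 events, whereas RI are called higher in 1303 and lower in 232.

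To describe exons rather than events, the SE event with the most reads was kept for each of the 58506 distinct exons tested, of which 2125 were called higher (3.63%) and 5488 lower (9.38%). Exons called lower were mostly included in control cells, with a median Ψ of 0.97 in DMSO and 0.843 with co-treatment. Exons called higher were mostly alternative, and their median Ψ was 0.34 in DMSO and 0.637 with co-treatment. Exons with a mean Ψ over both groups between 0.5 and 0.9 were called lower in 32.5% and higher in 9.43% of 4516 cases. Between 0.1 and 0.5 the shares were 24.9% lower and 20.7% higher, of 2406 exons. Among the 45015 exons at 0.9 or more, 6.2% were called lower and 1.41% higher. The bins use the same values as the calls, so these shares are a description.

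The share called lower was largest in the shortest exons, and the share called higher was large at both ends of exon length. Of 571 exons of up to 27 nt, 15.4% were called lower and 9.81% higher, although these had fewer reads (median 180) than all exons (median 254). The share called lower was 13.1% for 28 to 60 nt, 10.7% for 61 to 120 nt, and 6.63% for exons over 180 and up to 300 nt. In the same classes the share called higher was 4.12%, 2.88%, and 4.94%, and exons over 300 nt were called higher in 6.18% and lower in 7.58% of 2927 cases. Exons called lower had a median length of 106 nt, against 129 nt for exons called higher and 120 nt for exons not called. The median intron before the exon measured 1514 nt for exons called lower, 1536 nt for exons called higher, and 2116 nt for exons not called. Where both neighbouring introns were under 500 nt, 17.7% of 5654 exons were called lower and 2.1% higher, with a median of 332 reads. Exons between introns of over 5000 nt were also called lower more often than all exons (11.3% of 6675), with fewer reads (median 179). No test was run on these shares, and the part of read depth in them was not tested.

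The share of exons called lower was larger beside retained introns. Of 1138 exons next to an RI that was called higher, 258 (22.7%) were called lower and 22 (1.93%) higher. Of 1390 exons next to an RI that was tested and not called higher, 13.8% were called lower, and of 55978 exons next to no tested RI the share was 9%. The median reads of these 3 classes were 419, 306, and 250, and the part of depth in the shares was not tested. The shares by reading frame lay closer together. Of the exons called lower 43.8% had a length that is a multiple of 3, of those called higher 44.7%, and of those not called 40.3%.

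**Figure D2:**
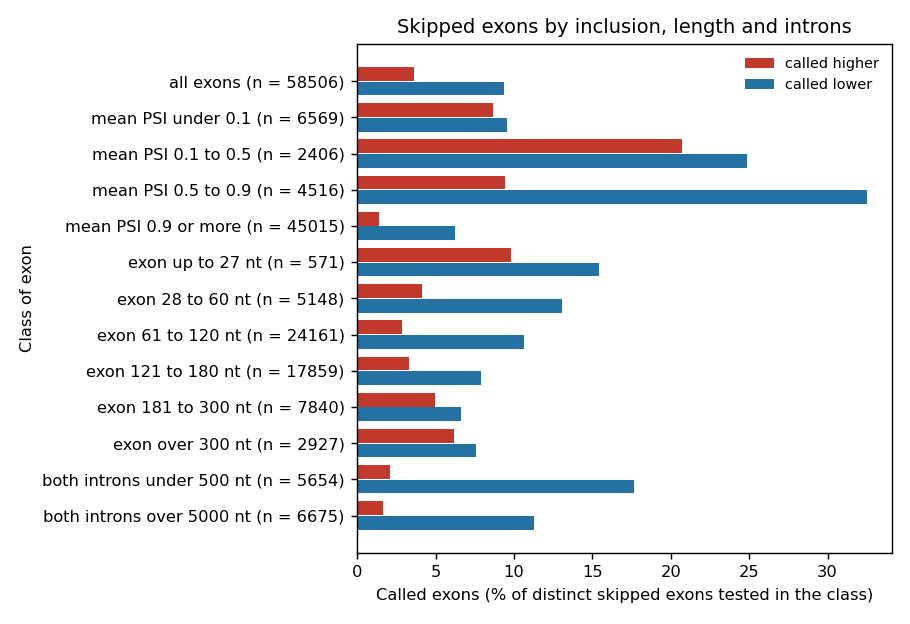
Share of distinct skipped exons called higher or lower with co-treatment (x axis, percent of the exons tested in the class) by mean Ψ over both groups, exon length, and length of both neighbouring introns (y axis, with the number of exons). The lower share reaches 32.5% at a mean Ψ of 0.5 to 0.9 and 17.7% between introns of under 500 nt, against 9.38% of all exons.

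The exon bases of the 5′ splice site were counted in the reference sequence, and G and A had smaller shares in exons called lower than in exons called higher. The last base of the exon was G in 72.4% of the 5488 exons called lower and in 84% of the 2125 called higher, with 79.4% among all exons tested. The base before it was A in 54.4% of exons called lower, 70.1% of those called higher, and 64.1% of all exons. Within the intron the third base differed as well, with G in 38.9% of exons called lower and 28.5% of those called higher (32.9% of all exons). The fourth base was A in 65.1% and 60%, and the fifth base was G in 73% and 73.9%. The 17 bases that end 3 bases before the exon held on average 73.7% pyrimidines for exons called lower and 72.4% for those called higher. Exons not called but with at least 10 reads of each form had G as the last base in 80.2%. These shares are descriptions of the reference sequence at the exon ends, with no test.

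The same bases were counted at the competing sites of A5SS. For 547 events in which the longer exon rose, the site of the shorter exon had a G before the intron in 68%, and for 353 events in which it fell the share was 87.3%, against 76.3% of the 3682 sites of all events tested. At the site of the longer exon the shares were 80.6% and 75.9%. The fifth intron base of the shorter exon's site was G in 68.9% where the longer exon rose and in 79.9% where it fell. The extra segment had a median length of 85 nt where it rose, 151 nt where it fell, and 77 nt in events not called. It lay within a listed RI in 9.51% of the events that rose, 13.6% of those that fell, and 8.2% of those not called. Since reads within the extra segment count for the longer exon, a retained intron that covers the segment adds to its Ψ. Without the segments in a listed RI, 495 of 3354 A5SS were called higher (14.8%) and 305 lower (9.09%).

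A3SS that differ by 3 nt, the NAGNAG kind in which neighbouring AG compete, had few calls. Of 637 such events tested, 8 were called toward the longer exon and 9 toward the shorter. Where the sites were over 50 nt apart, 261 of 2797 A3SS were called toward the longer exon (9.33%) and 205 toward the shorter (7.33%). The median reads were 136 and 251, and the part of depth was not tested. Of the called MXE 66.2% held an exon that was also called as an SE, against 24.8% of the MXE not called, so the event types share exons and reads.

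The named exons are the 8 with the largest ΔΨ in each direction among called SE with at least 50 reads in every library and no overlap between the groups, 1 per gene. They were chosen for their size, so their values are given as a description. Among those that fell, an exon of SNHG1, a noncoding host gene of small nucleolar RNAs, had the largest change (chr11:62622360-62622410, minus strand). This 51-nt exon, printed above, is in 43 annotated transcripts. Its Ψ was 0.828, 0.828, and 0.848 in DMSO and 0.0951, 0.107, and 0.0931 with co-treatment, so a main form became a minor one in every library (ΔΨ -0.736 ± 0.0078). GSK591 alone gave 0.287 ± 0.063, MS023 alone 0.821 ± 0.015, and 2 days of co-treatment 0.116 ± 0.012. MS023 alone thus stayed near DMSO at this exon, and co-treatment at 4 days lay below GSK591 alone (direct test with dispersion from limma, adjusted p = 1.4e-41).

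A 129-nt exon of RPS25, which encodes a protein of the small ribosomal subunit, had a Ψ of 0.869, 0.896, and 0.843 in DMSO and 0.179, 0.154, and 0.129 with co-treatment (chr11:118888635-118888763, minus strand, ΔΨ -0.715 ± 0.021). The single inhibitors lay between these groups, with 0.528 ± 0.031 for GSK591 and 0.518 ± 0.013 for MS023, and co-treatment was lower than either (adjusted p = 9.8e-117 and 6.3e-81, moderated with limma). The only annotated transcript with exactly this exon is a target of nonsense-mediated decay, and ribosomal protein genes have processed copies elsewhere in the genome whose reads could be assigned here, so this value is uncertain. In SUN1, a protein of the inner nuclear membrane, a 111-nt exon that is coding in 3 transcripts had 0.753, 0.868, and 0.827 in DMSO and 0.167, 0.125, and 0.141 with co-treatment (chr7:889560-889670, plus strand). This exon is also named as the second exon of an MXE, so both events describe the same change.

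In MSI2, an RNA-binding protein of the Musashi family, the Ψ of a 73-nt exon was 0.911, 0.862, and 0.931 in DMSO and 0.27, 0.229, and 0.226 with co-treatment (chr17:55754348-55754420, plus strand). A 57-nt exon of CLSTN1, a cadherin-like transmembrane protein whose isoforms differ between epithelial and mesenchymal cells, had 0.69, 0.718, and 0.683 in DMSO and 0.0733, 0.0655, and 0.114 with co-treatment (chr1:9797556-9797612, minus strand). Both exons fell in each co-treated library by more than the spread of either group. CLSTN1 stood at 0.381 ± 0.044 with GSK591, 0.575 ± 0.026 with MS023, and 0.342 ± 0.025 after 2 days of co-treatment. Its exon thus stood lower after 4 than after 2 days of co-treatment (adjusted p = 3.8e-28, quasi-binomial test moderated with limma), without DMSO libraries of 2 days to compare.

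The exon of NTAN1, an amidase that prepares proteins for degradation (chr16:15141854-15141956, minus strand), was at 0.963, 0.965, and 0.989 in DMSO and at 0.408, 0.133, and 0.441 with co-treatment. Co-treated library b is far below the other two. The groups do not overlap with or without it, which the choice of exons required. KIAA0430, annotated as MARF1, had 0.841, 0.892, and 0.917 in DMSO and 0.332, 0.311, and 0.245 with co-treatment for a 199-nt exon that no transcript of this annotation has with exactly these ends (chr16:15719459-15719657, minus strand). CASK, a membrane-associated guanylate kinase, had 0.814, 0.729, and 0.984 in DMSO and 0.267, 0.2, and 0.312 with co-treatment (chrX:41416285-41416353, minus strand). The DMSO libraries of CASK spread more than those of the other named exons that fell (SD 0.13).

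Among the exons that rose, the largest change was in ERCC8, which acts in transcription-coupled DNA repair. Its 1607-nt exon (chr5:60187864-60189470, minus strand) had a Ψ of 0.068, 0.0511, and 0.101 in DMSO and 0.688, 0.806, and 0.746 with co-treatment (ΔΨ 0.673 ± 0.037). None of the 3 annotated transcripts with this exon is protein coding, and a GNL3L pseudogene is annotated at the same place and strand, so reads within it cannot be assigned to ERCC8 with certainty. A 39-nt exon of SEC31A, a coat protein of vesicles that leave the endoplasmic reticulum, had 0.204, 0.237, and 0.202 in DMSO and 0.849, 0.842, and 0.919 with co-treatment (chr4:83752090-83752128, minus strand). With single inhibitors SEC31A reached 0.336 ± 0.039 (GSK591) and 0.424 ± 0.069 (MS023), which is under the 0.629 ± 0.021 of co-treatment at 2 days.

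RTN4, known as Nogo, has a long exon of 2400 nt that is used in its longest isoform, Nogo-A (chr2:55252222-55254621, minus strand). Its Ψ was 0.168, 0.186, and 0.177 in DMSO and 0.707, 0.746, and 0.718 with co-treatment, and both groups were tight (ΔΨ 0.547 ± 0.013). The libraries of GSK591 alone spread widely (0.229, 0.456, and 0.441), and those of MS023 were 0.217, 0.284, and 0.285. Since reads within an exon count for its inclusion, the Ψ of an exon this long rests on the effective length, and without that division ΔΨ was 0.192.

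A 15-nt microexon of PAPSS2, which makes the sulfate donor PAPS, rose from 0.0925, 0.128, and 0.0822 in DMSO to 0.563, 0.658, and 0.616 with co-treatment (chr10:89481513-89481527, plus strand). FUT8, the core fucosyltransferase of N-glycans, had 0.0837, 0.0522, and 0.0884 in DMSO and 0.575, 0.638, and 0.547 with co-treatment for a 102-nt exon (chr14:66083808-66083909, plus strand). Neither inhibitor alone brought either exon near that level, and PAPSS2 was at 0.2 ± 0.031 with GSK591 and 0.233 ± 0.046 with MS023. FUT8 was at 0.0517 ± 0.01 with MS023, at 0.138 ± 0.024 with GSK591, and at 0.304 ± 0.012 after 2 days of co-treatment, below the 0.587 ± 0.046 of 4 days.

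NEDD4L, an E3 ubiquitin ligase of ion channels, rose from 0.335, 0.316, and 0.347 in DMSO to 0.796, 0.872, and 0.865 with co-treatment at a 60-nt exon that is coding in 5 transcripts (chr18:56002710-56002769, plus strand). RALGPS2, an exchange factor for Ral GTPases, had 0.109, 0.212, and 0.326 in DMSO and 0.768, 0.748, and 0.827 with co-treatment at a 78-nt exon (chr1:178861365-178861442, plus strand). FLRT3, a cell-surface protein with leucine-rich repeats, had 0.387, 0.327, and 0.257 in DMSO and 0.826, 0.854, and 0.958 with co-treatment at an exon of 194 nt in its UTR (chr20:14309780-14309973, minus strand). In these 3 genes the lowest co-treated library lies well above the highest DMSO library, and the choice of exons required that the groups do not overlap. With limma on the log2 odds, the 16 named SE had adjusted p-values from 0.00786 to 0.0329, and all were called.

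**Figure D3:**
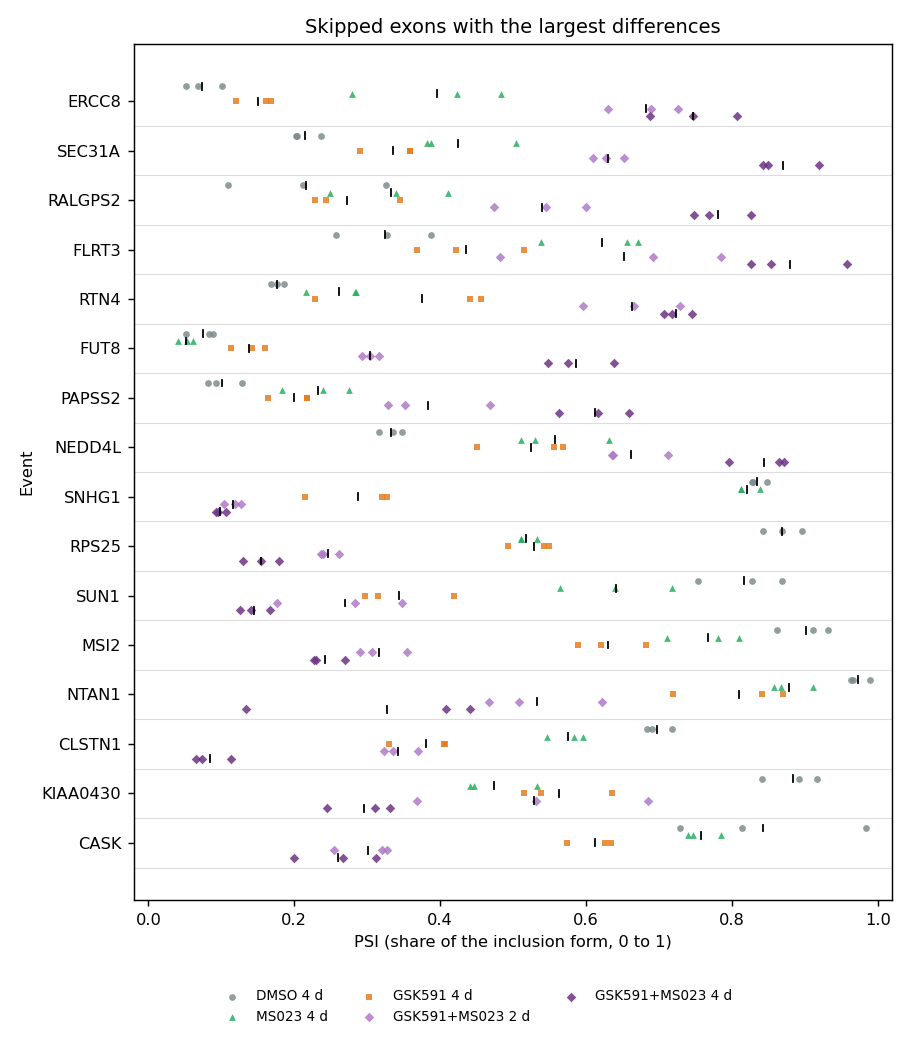
Ψ (x axis, 0 to 1) of the 16 named skipped exons (y axis, by gene) in each library of 5 groups of 3, with a black tick at the mean of the group. The co-treated libraries of 4 days lie farthest from DMSO on average at all 16 exons, from ERCC8 (0.0735 in DMSO, 0.747 with co-treatment) to CASK (0.842 and 0.26). The choice of these exons by size in the same libraries favours this.

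Of the MXE, SUN1 switched from its second to its first exon, with a Ψ of the first exon of 0.226, 0.175, and 0.191 in DMSO and 0.889, 0.911, and 0.888 with co-treatment (first exon chr7:889157-889240, plus strand, second exon chr7:889560-889670, plus strand). GSK591 alone gave 0.763 ± 0.014 and MS023 alone 0.37 ± 0.023. PUS1, a pseudouridine synthase, had 0.2, 0.191, and 0.139 in DMSO and 0.766, 0.783, and 0.75 with co-treatment, with coding first and second exons of 112 and 103 nt (chr12:132417267-132417378, plus strand and chr12:132423718-132423820, plus strand). In PUS1 the single inhibitors stayed nearer to DMSO, with 0.267 ± 0.014 for GSK591 and 0.328 ± 0.061 for MS023. SNHG1 entered both lists, since its 51-nt exon lost ground to the exon before it (chr11:62622605-62622688, minus strand, ΔΨ 0.582 ± 0.027) and to the exon after it (chr11:62621991-62622023, minus strand, ΔΨ -0.738 ± 0.015). RTN4 lost its 57-nt exon (chr2:55255300-55255356, minus strand) in favour of the 2400-nt exon, from 0.814, 0.802, and 0.815 in DMSO to 0.287, 0.254, and 0.266 with co-treatment, a ΔΨ of -0.541 ± 0.011 that was -0.228 without effective length. FAM49B, annotated as CYRIB, a regulator of Rac1 on chromosome 8, had 0.901, 0.905, and 0.896 in DMSO and 0.451, 0.436, and 0.504 with co-treatment.

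RNF216, an E3 ubiquitin ligase, had the largest change of all named events. Use of a 3′ splice site 269 nt upstream (chr7:5778984-5779252, minus strand) was at 0.0706, 0.0702, and 0.0326 in DMSO and 0.822, 0.849, and 0.778 with co-treatment (ΔΨ 0.758 ± 0.024). GSK591 alone reached 0.64 ± 0.047, and MS023 alone stayed at 0.0302 ± 0.0078. PLD3, of the phospholipase D family, showed 0.321, 0.297, and 0.344 in DMSO and 0.819, 0.773, and 0.732 with co-treatment at a site 35 nt upstream (chr19:40872291-40872325, plus strand), where GSK591 alone gave 0.813 ± 0.089 (difference from co-treatment not called, adjusted p = 0.88, moderated with limma). D2HGDH, a mitochondrial dehydrogenase, had 0.425, 0.354, and 0.365 in DMSO and 0.775, 0.819, and 0.815 with co-treatment for a segment of 804 nt (chr2:242694460-242695263, plus strand), and its ΔΨ of 0.422 ± 0.026 was 0.166 without effective length.

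Of the A3SS that fell, that of SNHG1 had 0.958, 0.932, and 0.916 in DMSO and 0.471, 0.477, and 0.486 with co-treatment for a 231-nt segment (chr11:62621306-62621536, minus strand). NAGK, a sugar kinase, had 0.943, 1, and 0.89 in DMSO and 0.434, 0.427, and 0.646 with co-treatment for 1049 nt (chr2:71302685-71303733, plus strand), and limma did not call it (adjusted p = 0.0906). NDUFS7, a subunit of complex I, was at 1 in each DMSO library, where no read of the shorter form was counted, and at 0.47, 0.443, and 0.372 with co-treatment (chr19:1388832-1390869, plus strand). Its segment of 2038 nt makes a single read of the shorter form weigh heavily, and its adjusted p of 0.015 (moderated with limma) rose above the threshold when any DMSO library was left out. For these 3 A3SS the ΔΨ with and without effective length was -0.457 and -0.273 in SNHG1, -0.442 and -0.108 in NAGK, and -0.572 and -0.0845 in NDUFS7.

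Among A5SS, the largest change toward the longer exon was in ENSA, an inhibitor of the phosphatase PP2A in mitosis. Its longer form, with 69 more coding nt (chr1:150599874-150599942, minus strand), was at 0.199, 0.17, and 0.176 in DMSO and 0.863, 0.791, and 0.857 with co-treatment. WDR60, annotated as DYNC2I1, a dynein chain of cilia, had 0.0942, 0.1, and 0.134 in DMSO and 0.459, 0.654, and 0.709 with co-treatment for 2688 nt (chr7:158695287-158697974, plus strand). No annotated transcript has coding sequence or a UTR within this segment. TMEM175, a lysosomal potassium channel, had 0.169, 0.267, and 0.196 in DMSO and 0.749, 0.744, and 0.626 with co-treatment (chr4:941943-942403, plus strand). In each of the 3 the groups are apart, which the choice of named events required, and in WDR60 co-treated library a is lower than the other two. The ΔΨ of WDR60 was 0.498 ± 0.077 and 0.268 without effective length.

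CPNE1, a calcium-dependent membrane-binding protein, moved toward the shorter exon with little spread, from 0.741, 0.752, and 0.742 in DMSO to 0.268, 0.248, and 0.25 with co-treatment over at least 811 reads per library (chr20:34220085-34220232, minus strand). PCNT, a scaffold of the centrosome, went from 0.832, 0.726, and 0.798 in DMSO to 0.234, 0.279, and 0.199 with co-treatment (chr21:47851893-47852129, plus strand), and GSK591 alone was at 0.166 ± 0.012. PGAP3, which remodels GPI anchors, had 0.937, 0.781, and 0.879 in DMSO and 0.332, 0.317, and 0.478 with co-treatment (chr17:37829767-37830245, minus strand), with a ΔΨ of -0.49 ± 0.069 that was -0.252 without effective length. The competing 5′ splice sites of ENSA and CPNE1, which moved in opposite directions, are shown because the shares of exon bases above refer to such sites. Capitals mark the last 3 exon bases and lower case the first 6 of the intron, for the longer and then the shorter exon.

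ENSA longer exon (chr1:150599868-150599876, minus strand): GAGgttcta

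ENSA shorter exon (chr1:150599937-150599945, minus strand): GGGgtatgg

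CPNE1 longer exon (chr20:34220079-34220087, minus strand): AAGgtgtgt

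CPNE1 shorter exon (chr20:34220227-34220235, minus strand): ACGgtaagg

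All of these sites end the exon in G. With limma on the log2 odds, all 6 named MXE and all 6 named A5SS were called (adjusted p from 0.00163 to 0.00231 and from 0.00984 to 0.02), and 5 of the 6 named A3SS.

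**Figure D4:**
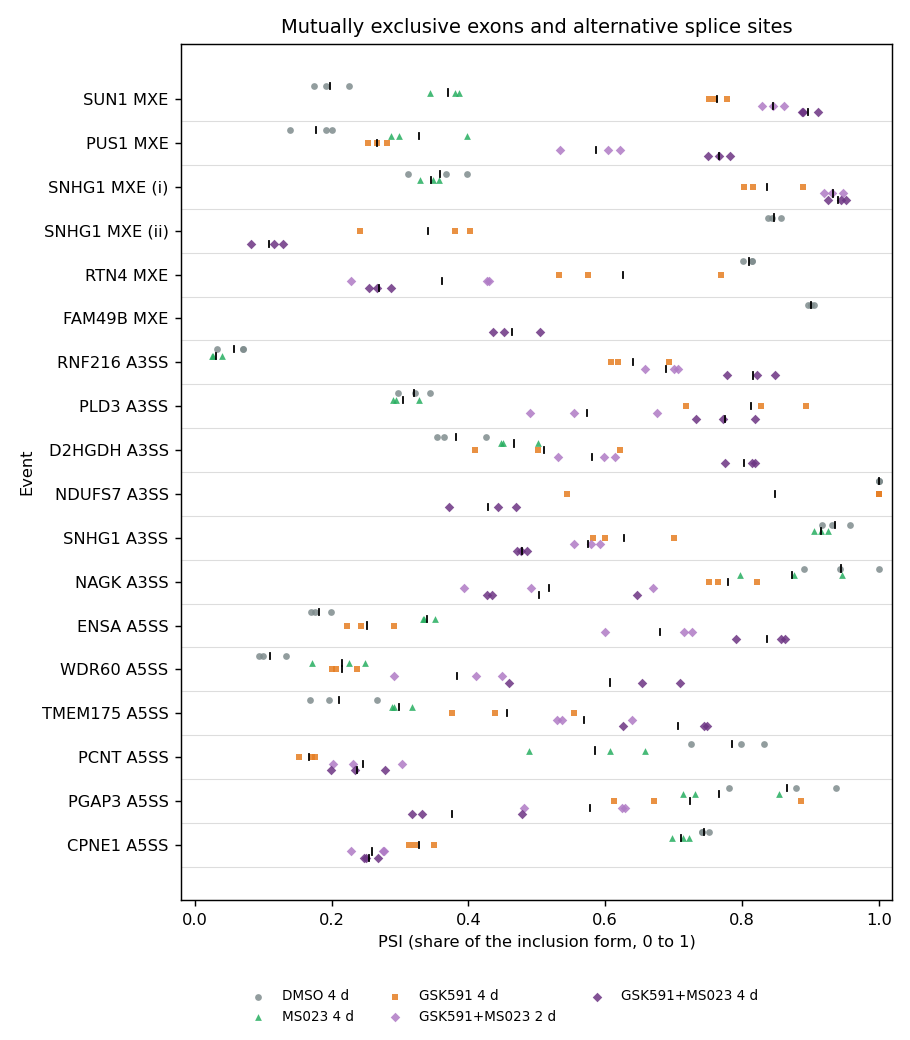
Ψ (x axis, 0 to 1) of the named MXE, A3SS, and A5SS (y axis) in each library of 5 groups of 3, with a black tick at the group mean. SNHG1 MXE (i) sets its 51-nt exon against the exon before it and (ii) against the exon after it, and groups without points were not listed or not tested there. RNF216 rises from 0.058 in DMSO to 0.816 with co-treatment and is at 0.0302 with MS023.

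To ask where co-treatment differs from each inhibitor alone, its libraries were tested against those of the other groups without DMSO. Only events listed for both groups in their comparisons with DMSO could be tested. The shares are therefore over fewer events than the shares called against DMSO. Co-treatment differed from GSK591 at 3288 of 66617 SE (4.94%), 1702 lower and 1586 higher. The shares were 5.29% of MXE (828 of 15662), 3.01% of A3SS (177 of 5879), and 5.23% of A5SS (201 of 3844). Over all events tested, limma called 0 SE, 26 MXE, 0 A3SS, and 6 A5SS. In limma's test 8542 of 66617 SE and 596 of 5879 A3SS had an unadjusted p under 0.05. A share of 0.05 is expected to pass where nothing differs. How many limma passes in that case was not checked on these data, and events share exons and reads, so these counts decide nothing. The count of called SE also fell to 23 when the spread was counted over all libraries, including groups with no read of 1 form. From MS023 the distance was larger, with 8521 of 65434 SE called (13%), 5605 lower and 2916 higher. The shares were 11.1% of MXE (1661 of 15009), 13.4% of A3SS (789 of 5867), and 26% of A5SS (998 of 3840), and over all SE tested limma called 3409 and the spread counted over all libraries gave 1329. Of the A5SS that differed from MS023, 67.7% were higher with co-treatment.

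Between 2 and 4 days of co-treatment fewer events differed. These were 954 of 67328 SE (1.42%), 186 of 16172 MXE (1.15%), 61 of 5825 A3SS (1.05%), and 60 of 3844 A5SS (1.56%). Of the 954 SE, 700 were higher at 4 days and 254 lower, the opposite balance to that against DMSO. The count was 604 without co-treatment library a of 4 days. No DMSO libraries of 2 days were used, so length of treatment and time in culture cannot be told apart here. Limma called 0 events of any exon type here, and 0 SE were called with the spread counted over all libraries. In limma's test 5961 SE, 1349 MXE, 435 A3SS, and 321 A5SS had an unadjusted p under 0.05. Where nothing differs, a share of 0.05 of the tested events is expected to pass that threshold. How many limma passes in that case was not checked on these data, and events share exons and reads, so no conclusion is drawn from these counts.

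The 34 largest events were also compared with the other groups. Co-treatment at 4 days differed from GSK591 in 30 of the 33 that could be tested there, from MS023 in 30 of 30, and from 2 days of co-treatment in 11 of 31, each time on the side away from DMSO. Limma called 2, 26, and 0 of these events. As they were chosen for their size in these same co-treated libraries, the distance from the other groups includes that choice. In 3 events, PLD3, PCNT, and NDUFS7, the difference from GSK591 was not called (adjusted p = 0.88, 0.45, and 0.16, test moderated with limma). The events named only from the gene lists, given below, differed less often. Co-treatment differed from GSK591 in 10 of 21 of them, from MS023 in 16 of 20, and from 2 days of co-treatment in 3 of 20. RAD51D, at 0.755 ± 0.032 with GSK591 alone, was among those not called against GSK591 (adjusted p = 0.39, test moderated with limma).

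The exons of 12 gene lists were set beside the 3.63% of all exons called higher and the 9.38% called lower. The list of SR proteins and TRA2, which also holds related factors such as LUC7L, PNN, and SRRM1, had the largest share called higher. In this list 134 skipped exons were tested in 21 of the 23 genes, of which 21 were called higher (15.7%) and 19 lower (14.2%). The median ΔΨ was -5.73e-05, against -0.00167 over all exons. TRA2A had 0.612, 0.58, and 0.665 in DMSO and 0.773, 0.899, and 0.963 with co-treatment (chr7:23561751-23562051, minus strand), a call lost without DMSO library b, without co-treatment library b, and without co-treatment library c. SREK1 had 0.18, 0.204, and 0.196 in DMSO and 0.45, 0.423, and 0.44 with co-treatment at a 2868-nt exon that no protein-coding transcript holds with exactly these ends (chr5:65451893-65454760, plus strand), and GSK591 alone gave 0.466 ± 0.045. Limma called neither (adjusted p = 0.106 and 0.123). Their ΔΨ of 0.259 and 0.244 was 0.124 and 0.111 without effective length.

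Of the hnRNP list, 197 skipped exons were tested in 25 of the 32 genes, of which 16 were called higher (8.12%) and 31 lower (15.7%). PCBP2, a poly(C)-binding protein, had a coding 39-nt exon at 0.663, 0.62, and 0.622 in DMSO and 0.0935, 0.0931, and 0.0934 with co-treatment (chr12:53861589-53861627, plus strand), on at least 2659 reads per library. MS023 alone left it at 0.624 ± 0.0073, and GSK591 alone gave 0.187 ± 0.009. Its relative PCBP4 had 0.778, 0.781, and 0.887 in DMSO and 0.435, 0.508, and 0.464 with co-treatment at a 129-nt exon (chr3:51993911-51994039, minus strand), which limma did not call (adjusted p = 0.0606). The hnRNP exons had a median of 2079 reads, and the exons of SR proteins 677, against 254 for all exons. With more reads smaller changes can be called, and the part of depth in these shares was not tested.

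Among other splicing regulators, 327 skipped exons were tested in 44 of the 48 genes, of which 16 were called higher (4.89%) and 38 lower (11.6%). RBM4, which binds pyrimidine-rich RNA, had 0.0431, 0.0743, and 0.107 in DMSO and 0.626, 0.418, and 0.685 with co-treatment at a 110-nt exon that is in no protein-coding transcript (chr11:66412105-66412214, plus strand). RBM41 had 0.439, 0.547, and 0.359 in DMSO and 0.92, 0.902, and 0.903 with co-treatment at an A3SS (chrX:106312633-106313655, minus strand), with a ΔΨ of 0.46 ± 0.055 that was 0.127 without effective length. In the list of Sm and snRNP proteins, 149 skipped exons were tested in 39 of the 42 genes, of which 10 were called higher (6.71%) and 20 lower (13.4%). GEMIN8, of the SMN complex that loads Sm proteins on snRNAs, had 0.308, 0.237, and 0.212 in DMSO and 0.539, 0.539, and 0.816 with co-treatment on as few as 21 reads (chrX:14044171-14044340, minus strand), and LSM14B 0.588, 0.555, and 0.365 in DMSO and 0.226, 0.371, and 0.242 with co-treatment (chr20:60702641-60702757, plus strand). Limma called RBM4 and RBM41 (adjusted p = 0.015 and 0.021) and neither GEMIN8 nor LSM14B (adjusted p = 0.0853 and 0.257). RBM4 and RBM41 had as few as 36 and 21 reads in a library.

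In the list of spliceosome components the share called lower was under that of all exons. Of this list, 469 skipped exons were tested in 71 of the 78 genes, of which 20 were called higher (4.26%) and 36 lower (7.68%). PRPF40B, a U1 snRNP-associated factor, had 0.799, 0.854, and 0.839 in DMSO and 0.373, 0.368, and 0.372 with co-treatment at a coding 111-nt exon (chr12:50026797-50026907, plus strand), and GSK591 alone gave 0.325 ± 0.054. U2AF1, which recognises the 3′ splice site AG, had 0.556, 0.584, and 0.506 in DMSO and 0.16, 0.204, and 0.218 with co-treatment at a 67-nt exon (chr21:44520563-44520629, minus strand), where a near-identical copy is also annotated, so the value is uncertain. Limma called PRPF40B (adjusted p = 0.0227) and not U2AF1 (adjusted p = 0.0511).

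Among the PRMTs and their partners, 86 skipped exons were tested in 14 of the 18 genes, of which 5 were called higher (5.81%) and 10 lower (11.6%). CARM1, a Type I enzyme also known as PRMT4, had 1, 1, and 0.991 in DMSO and 0.82, 0.815, and 0.672 with co-treatment at a 134-nt exon whose only exact transcript is a decay target (chr19:11030509-11030642, plus strand), and its ΔΨ of -0.228 ± 0.049 was -0.137 without effective length. PRMT7 had 0.759, 0.57, and 0.676 in DMSO and 1, 0.901, and 0.953 with co-treatment at a coding 84-nt exon (chr16:68381114-68381197, plus strand), and MS023 alone gave 0.933 ± 0.064. Limma did not call PRMT7 (adjusted p = 0.0549). PRMT5, the target of GSK591, had no called event among its 16 tested exon events. Its SE with the smallest p, a 117-nt exon, was at 1, 1, and 1 in DMSO and 0.989, 1, and 1 with co-treatment (chr14:23391652-23391768, minus strand), and its A5SS was at 0.43, 0.361, and 0.334 in DMSO and 0.509, 0.534, and 0.412 with co-treatment (adjusted p = 0.2, moderated with limma). Its MXE with the smallest p was at 0.397, 0.368, and 0.364 in DMSO and 0.421, 0.386, and 0.381 with co-treatment, and its A3SS at 0.0164, 0.0178, and 0.0234 and 0.0155, 0.0212, and 0.0146.

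In the list of splicing and transcription kinases, 137 skipped exons were tested in 25 of the 26 genes, of which 9 were called higher (6.57%) and 14 lower (10.2%). CDK10 had 0.938, 0.983, and 0.932 in DMSO and 0.387, 0.501, and 0.398 with co-treatment at a 70-nt exon (chr16:89759806-89759875, plus strand), and CLK2, which phosphorylates SR proteins, had 0.786, 0.693, and 0.723 in DMSO and 0.305, 0.334, and 0.196 with co-treatment at an 85-nt exon (chr1:155238499-155238583, minus strand). Both exons have lengths that are no multiple of 3. Of the list of mRNA export and nonsense-mediated decay, 212 skipped exons were tested in 33 of the 34 genes, of which 7 were called higher (3.3%) and 14 lower (6.6%), which is near or under the shares of all exons. SMG1, the kinase of nonsense-mediated decay, had 0.447, 0.525, and 0.426 in DMSO and 0.195, 0.168, and 0.117 with co-treatment (chr16:18911309-18911366, minus strand). UPF3A had 0.349, 0.438, and 0.398 in DMSO and 0.233, 0.174, and 0.262 with co-treatment (chr13:115051777-115051875, plus strand), and limma called neither of SMG1 and UPF3A (adjusted p = 0.0674 and 0.283).

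CHTOP, an arginine-rich export factor and PRMT substrate, had 2 of 4 tested SE called higher. Its 138-nt coding exon was at 0.863, 0.85, and 0.889 in DMSO and 0.969, 0.973, and 0.968 with co-treatment (chr1:153615703-153615840, plus strand, ΔΨ 0.103 ± 0.011), above GSK591 (0.897 ± 0.0074) and MS023 (0.902 ± 0.017). Limma gave an adjusted p of 0.0542 for this exon, and ΔΨ was 0.0578 without effective length. Its MXE rose from 0.653, 0.584, and 0.624 in DMSO to 0.667, 0.67, and 0.704 with co-treatment (adjusted p = 0.031, moderated with limma), a call that 4 of the 6 single libraries decide, as it is lost without DMSO library b or c and without co-treatment library b or c.

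Of p53 regulation and apoptosis, 204 skipped exons were tested in 32 of the 35 genes, of which 5 were called higher (2.45%) and 18 lower (8.82%). MDM4, an inhibitor of p53, had 2 of 8 tested SE called lower. Its 68-nt exon, printed above, was at 0.673, 0.78, and 0.805 in DMSO and 0.26, 0.251, and 0.179 with co-treatment (chr1:204506558-204506625, plus strand, ΔΨ -0.523 ± 0.048). The length is no multiple of 3, and the library with the fewest reads had 49. GSK591 alone brought it to 0.162 ± 0.044 and MS023 alone to 0.857 ± 0.086, on either side of the DMSO mean of 0.753, and the difference of MS023 from DMSO was not tested here. Co-treatment differed from MS023 (adjusted p = 1.3e-14) and was not called against GSK591 (adjusted p = 0.66, both moderated with limma). MDM2, the ubiquitin ligase of p53, had 1 of 24 tested SE called higher and 1 lower, 1 of 10 MXE higher, and its 1 tested A5SS higher. The SE with the smallest p, a 93-nt exon called lower, was at 0.0867, 0.0869, and 0.0778 in DMSO and 0.00872, 0.0249, and 0.0322 with co-treatment (chr12:69209408-69209500, plus strand). Its ΔΨ of -0.0619 was -0.0943 without effective length. An MDM2 MXE was at 0.198, 0.213, and 0.0293 in DMSO and 0.672, 0.599, and 0.426 with co-treatment, and an MDM2 A5SS at 0.922, 0.962, and 0.914 in DMSO and 0.965, 0.964, and 0.994 with co-treatment. Limma called none of these 3 MDM2 events (adjusted p = 0.095, 0.117, and 0.193), and the A5SS call was lost without DMSO library a or c or co-treatment library c. The MXE of MDM4 with the smallest p was at 0.698, 0.516, and 0.353 in DMSO and 0.748, 0.833, and 0.763 with co-treatment and its A3SS at 0.939, 0.939, and 0.941 in DMSO and 1, 0.877, and 0.909 with co-treatment, and neither was called (adjusted p = 0.082 and 0.98, moderated with limma). BCL2L12 had 0.632, 0.695, and 0.868 in DMSO and 0.376, 0.498, and 0.371 with co-treatment (chr19:50170279-50170418, plus strand), on as few as 26 reads in a library. The call was lost without DMSO library c, co-treatment library a, or co-treatment library c, and was not made by limma (adjusted p = 0.13).

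Genes whose isoforms switch between epithelial and mesenchymal cells had shares above those of all exons in both directions. Of this list, 389 skipped exons were tested in 37 of the 38 genes, of which 37 were called higher (9.51%) and 59 lower (15.2%). Beside CLSTN1, DST, a linker of the cytoskeleton, had 0.953, 0.982, and 0.914 in DMSO and 0.489, 0.465, and 0.485 with co-treatment at a coding 111-nt exon (chr6:56327844-56327954, minus strand). Both single inhibitors left DST near its level in DMSO, at 0.882 ± 0.012 for GSK591 and 0.894 ± 0.037 for MS023. The exons of this list had a median of 518 reads.

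In DNA repair and mitosis the shares called lower lay near that of all exons, and the shares called higher lay under it. For DNA repair, 781 skipped exons were tested in 96 of the 103 genes, of which 15 were called higher (1.92%) and 72 lower (9.22%). RAD51D, of homologous recombination, rose from 0.246, 0.274, and 0.251 in DMSO to 0.816, 0.874, and 1 with co-treatment at a 119-nt exon (chr17:33445520-33445638, minus strand), and ERCC8 is given above. For mitosis and cell division, 843 skipped exons were tested in 107 of the 113 genes, of which 22 were called higher (2.61%) and 74 lower (8.78%). NUMA1, of the spindle pole, had 0.911, 0.717, and 0.76 in DMSO and 0.356, 0.302, and 0.224 with co-treatment at an exon in its UTR (chr11:71760465-71760585, minus strand), and KIF23, a kinesin of the central spindle, 0.829, 0.796, and 0.814 in DMSO and 0.416, 0.395, and 0.377 with co-treatment (chr15:69738625-69738703, plus strand). Limma called these 3 exons (adjusted p = 0.0222, 0.0321, and 0.0298), although RAD51D and NUMA1 had as few as 27 and 25 reads in a library. The genes of all lists were chosen with results of these data known, so the shares carry no test of their own. Median reads per exon were 165 for DNA repair, 218 for p53 regulation, 243 for kinases, and 278 for mitosis, against 254 for all exons. They were 370 for export and decay, 389 for PRMTs, 483 for other regulators, 522 for spliceosome components, and 774 for Sm and snRNP proteins. The part of depth in the shares was not tested.

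**Figure D5:**
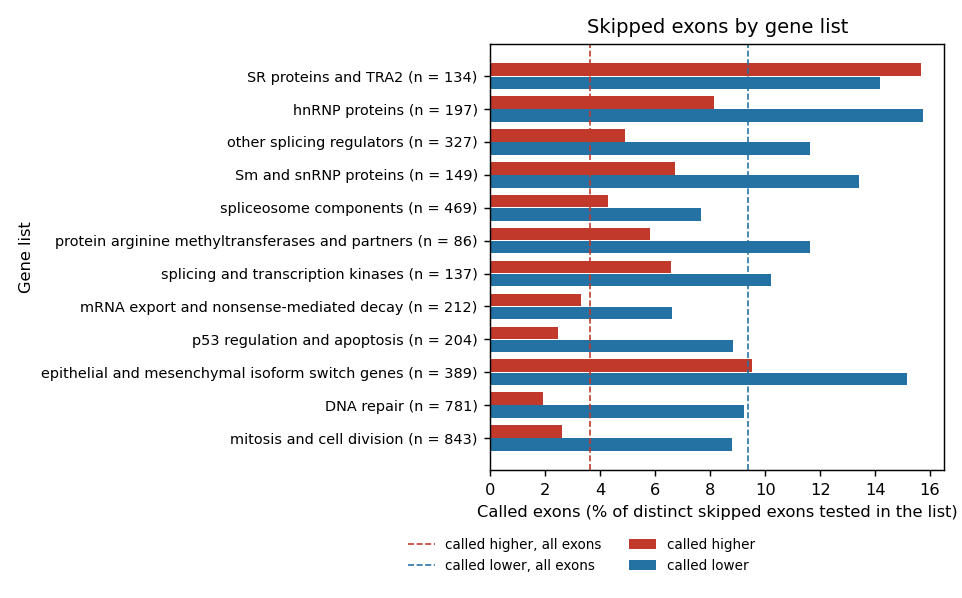
Share of distinct skipped exons called higher or lower with co-treatment (x axis, percent of the exons tested) in 12 gene lists (y axis, with the number of exons), with dashed lines at the shares of all exons (3.63% higher, 9.38% lower). SR proteins and TRA2 reach 15.7% higher (median of 677 reads per exon), and DNA repair 1.92% (median of 165).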

How the data were processed

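The authors sequenced stranded poly(A) RNA with 150-nt paired-end reads and counted splicing events with rMATS 4.0.2 against hg19. Per the labels the tools included Trim Galore 0.6.5 and STAR 2.4.2a. The deposited tables give, per event and library, the count of reads of each form, with the reads inside the alternative segment counted, and the effective lengths of both forms. The columns of differences, inclusion levels, and p-values in these tables are the authors' own comparison and were not used. No column of per-library values was left without a group (0 columns).

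Ψ was computed from these counts. Each event with at least 10 reads in every library was fitted with a quasi-binomial model of 2 groups, with a dispersion of at least 1 that was moderated by limma (version 3.58.1, R 4.3.3), and p-values were adjusted by Benjamini-Hochberg within an event type. Degrees of freedom were counted only in groups with reads of both forms. This replaced a count over all libraries after its calls had been seen, and the earlier form is kept as an alternative. Both tests were checked on simulated counts. The quasi-binomial test missed most of the smaller planted SE changes, and the share of false calls among its calls was above the nominal level in several event types. Limma on log2 odds, tried there on the smaller changes only, recovered none. As a second test, limma was run on log2 odds with 0.5 added to each form. Replicate libraries differed by more than sampling noise (chi-square per degree of freedom 2.10 to 3.61, the highest for MXE in pairs with DMSO library b), so none was counted as a copy. The members and lists were chosen with earlier results of these data known. Named events were the largest called ones with at least 50 reads per library and no overlap between the groups (8 SE and 3 of each other type per direction). Added to these were at most 2 genes per list with at least 20 reads, and MDM4, MDM2, PRMT5, and CHTOP. Exon annotation is from GENCODE on GRCh37.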

Additional observations from a re-analysis of the deposited data

Results flagged for a closer look

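For 15 named events the level with both inhibitors differed between 4 and 2 days in the direct quasi-binomial test moderated with limma. Time in culture may have differed too, as no DMSO libraries of 2 days were used. The difference in Ψ, 4 days minus 2 days, was positive for exons that rose against DMSO. It was 0.241 for SEC31A, 0.241 for RALGPS2, 0.226 for FLRT3, 0.283 for FUT8, 0.23 for PAPSS2, 0.182 for NEDD4L, and 0.0435 for CHTOP. The first exon of the PUS1 pair gained 0.18. Among events that fell against DMSO, the difference was -0.0917 for RPS25, -0.258 for CLSTN1, -0.232 for KIAA0430, -0.166 for DST, -0.0618 for PCBP2, -0.0755 for U2AF1, and -0.0973 for the A3SS of SNHG1. All 15 lay further from DMSO at 4 days, which the choice of events favours, since most were named for the size of their change in these same 4-day libraries. Limma on the log2 odds called 0 events of any exon type between the days, and among the 31 largest events tested there 17 had an unadjusted p under 0.05 in it.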

How the results depend on the processing

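With an absolute ΔΨ of at least 0.1, the counts higher and lower were 1269 and 3138 for SE, 696 and 511 for MXE, 191 and 172 for A3SS, and 319 and 198 for A5SS. By limma on log2 odds they were 867 and 3088, 565 and 453, 75 and 72, and 273 and 197. At an adjusted p under 0.01, 697 MXE were lower. SE that differed from GSK591, MS023, and 2 days of co-treatment numbered 1574, 4004, and 369 with the ΔΨ minimum, and 0, 3409, and 0 by limma. With the spread counted over all libraries, an alternative chosen after seeing the data, they numbered 23, 1329, and 0. At an adjusted p under 0.01, 2057 differed from GSK591 and 528 from 2 days. Against 2 days, leaving out 1 library gave 604 (without co-treatment library a) to 710. The cause was not tested.

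The median ΔΨ of SE was -0.00178 with at least 20 reads, -0.0021 with no minimum, -0.00167 with 1 event per exon, -0.00104 without effective length, and -0.00616 with at least 10 reads of each form (chosen after seeing the data). Without a minimum and with 10 reads of each form it was 0.000414 and 0.000553 for MXE, 0.000282 and 0.000753 for A3SS, and 0.00151 and 0.00439 for A5SS, and 0.000701 for A5SS without effective length. Leaving out 1 library gave -0.00204 to -0.000592 for SE, -0.000327 (without DMSO library b) to 0.000902 for MXE, and 0.000327 to 0.00153 for A5SS. The A3SS of MDM4, which was not called, ranged from -0.0466 to 0.0151 and turned positive without co-treatment library b.

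Of the 61 named and called events, 17 lost the call by limma or without 1 library, and these are NDUFS7, NAGK, TRA2A, SREK1, PCBP4, GEMIN8, LSM14B, U2AF1, PRMT7, SMG1, UPF3A, BCL2L12, 2 of CHTOP, and 3 of MDM2. No paired analysis was possible because the columns carry no replicate numbers. A planned likelihood test on the counts of both forms was not run. Groups of 3 cannot reach an exact permutation p under 0.1, and events with few reads of 1 form are called only at large changes.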
